A study of Mus musculus with 6 samples.

Results

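Endothelial and blood-brain barrier genes were followed in RNA from tdTomato-positive cells of the mouse hippocampal dentate gyrus. The 10 genes were taken by symbol from the 55367 symbols of the deposited table: Cldn5, Cdh5, Pecam1, Esam, Flt1, Kdr, Ly6c1, Ly6a, Slco1a4 and Itm2a. All of them were measured. The libraries came from mice of the TRAP2;Ai9 genotype, in which a tamoxifen-inducible Cre is made where the activity gene Fos is switched on and leaves a lasting red label. The Fos gene is not specific to neurons. All mice, in both groups, went through learned helplessness, a procedure of inescapable stress. The Run group, with 3 libraries, had 28 days of voluntary running, and the NR group, with 3 libraries, did not run. Cells labelled during the stress were sorted by their red fluorescence and profiled with Smart-seq2, which copies whole polyadenylated transcripts. How many mice and cells make up each library is not stated in the labels, so each p-value below reflects library-to-library spread, part or all of which may be technical.

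Endothelial cells line the blood vessels. In the brain they close the gaps between each other with tight junctions, carry nutrients and drugs across with selective transporters, and keep these properties under signals from astrocytes, pericytes and neurons, including Wnt ligands. Vascular endothelial growth factor (VEGF), acting through the receptors encoded by Kdr and Flt1, drives vessel growth. The 10 genes serve as markers of endothelium rather than of neurons, and the labels describe the sorted cells as neurons.

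Coding sequences are shown where a close relative bears on reading the values, and promoters are shown as a description. Ly6c1 has a close relative, Ly6c2, on the same chromosome, and the first 120 bases of their coding sequences are given below in the GENCODE M21 annotation, with capitals at the bases that differ. Ly6c1 lies at chr15:75044018-75048830 and Ly6c2 at chr15:75108158-75111970, both on the minus strand of the mm10 build.
Ly6c1: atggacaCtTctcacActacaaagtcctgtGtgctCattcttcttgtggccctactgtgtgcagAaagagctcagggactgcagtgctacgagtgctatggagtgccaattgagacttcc
Ly6c2: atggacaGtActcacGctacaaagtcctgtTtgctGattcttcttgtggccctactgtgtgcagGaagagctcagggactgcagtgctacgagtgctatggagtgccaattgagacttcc
These stretches differ at 6 bases. Over the most similar pair of annotated coding sequences, 384 of 393 bases were identical (97.7%) and 9 differed. Of the distinct 50-base words in the annotated transcripts of Ly6c1, 32.8% also occurred in transcripts of other genes, 379 words of them in Ly6c2 and 195 in Ly6a. For Ly6a the share was 19.0%. It was 1.61% for Slco1a4, whose shared words lay mostly in its neighbour in the family Slco1a5, 0.998% for Pecam1 and 0.112% for Flt1. Cldn5, Kdr, Cdh5, Esam and Itm2a shared no such word. Values of Ly6c1 and Ly6a are therefore uncertain to the extent that reads were split between relatives.

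The promoters of the 2 VEGF receptor genes and of Cldn5, the tight junction gene of the set, are given as 300-base windows (250 before and 50 after the start site, RefSeq, GRCm38.p6). Capitals mark GGAAG, a core that ETS-family factors can bind, TGACGTCA, the cyclic-AMP response element, and TATAAA, each on either strand. The windows are chr5:147725962-147726261 on the minus strand for Flt1, chr5:75978406-75978705 on the minus strand for Kdr, and chr16:18776597-18776896 on the plus strand for Cldn5.
Flt1: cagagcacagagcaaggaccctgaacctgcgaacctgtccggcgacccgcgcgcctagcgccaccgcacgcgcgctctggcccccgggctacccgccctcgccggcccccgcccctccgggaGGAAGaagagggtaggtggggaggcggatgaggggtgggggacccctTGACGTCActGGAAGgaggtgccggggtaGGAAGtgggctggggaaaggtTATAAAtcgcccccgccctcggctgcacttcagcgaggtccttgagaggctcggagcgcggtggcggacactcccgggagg
Kdr: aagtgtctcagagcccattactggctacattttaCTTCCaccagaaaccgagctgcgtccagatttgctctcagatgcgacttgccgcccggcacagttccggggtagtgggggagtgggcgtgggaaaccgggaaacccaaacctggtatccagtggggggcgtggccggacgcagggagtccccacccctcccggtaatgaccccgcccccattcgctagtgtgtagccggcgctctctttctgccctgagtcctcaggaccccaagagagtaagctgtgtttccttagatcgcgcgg
Cldn5: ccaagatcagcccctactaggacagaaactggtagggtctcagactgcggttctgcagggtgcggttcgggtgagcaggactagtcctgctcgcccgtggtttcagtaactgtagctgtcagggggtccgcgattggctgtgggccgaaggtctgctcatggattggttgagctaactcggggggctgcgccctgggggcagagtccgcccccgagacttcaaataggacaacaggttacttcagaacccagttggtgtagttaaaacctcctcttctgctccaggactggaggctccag
The Flt1 window held 3 copies of GGAAG, 1 of TGACGTCA and 1 of TATAAA, and none of these overlapped. The Kdr window held 1 copy of GGAAG, and the Cldn5 window held none of the 3 motifs. Of 32851 windows in the RefSeq set, 71.4% held GGAAG, 1.79% held TGACGTCA and 13.6% held TATAAA. Windows were found for 6 of the 10 genes. Of those not shown, the Itm2a window held 3 copies of GGAAG, that of Slco1a4 held 2, and those of Ly6c1 held 1 and 4. Whether motifs relate to how steadily a gene was detected was not tested. The other motifs searched were CGGAAG, which contains GGAAG, and ACAAAG and TGTTTAC, which were in none of the 3 windows, TGACG, which lies within TGACGTCA, and GGGCGG, which was in all 3. Windows with these made up 16.9%, 18.7%, 3.65%, 20.8% and 35.7% of the set. A match is letters only and was not tested for binding.

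All 10 genes reached 1 FPKM (fragments scaled to transcript length and library size) in at least 3 of the 6 libraries, and 5 of them, Ly6c1, Ly6a, Cldn5, Esam and Flt1, did so in all 6. Together the 10 genes made up 0.232%, 0.281% and 0.417% of the summed FPKM in Run replicates 1, 2 and 3, against 0.331%, 0.669% and 0.223% in NR replicates 1, 2 and 3. NR replicate 2 had the highest share, and the groups overlapped. A lower level in such material can come from fewer endothelial cells or from less RNA in each, which cannot be told apart. Of the 10 genes, 5 had their highest value in NR replicate 2 (Cldn5, Ly6c1, Ly6a, Flt1 and Kdr), which was also the library with the most genes at 1 FPKM or more, 7355 against 5426 to 6291 in the other 5. The part of this broader detection in the result was not tested.

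**Figure D1:**
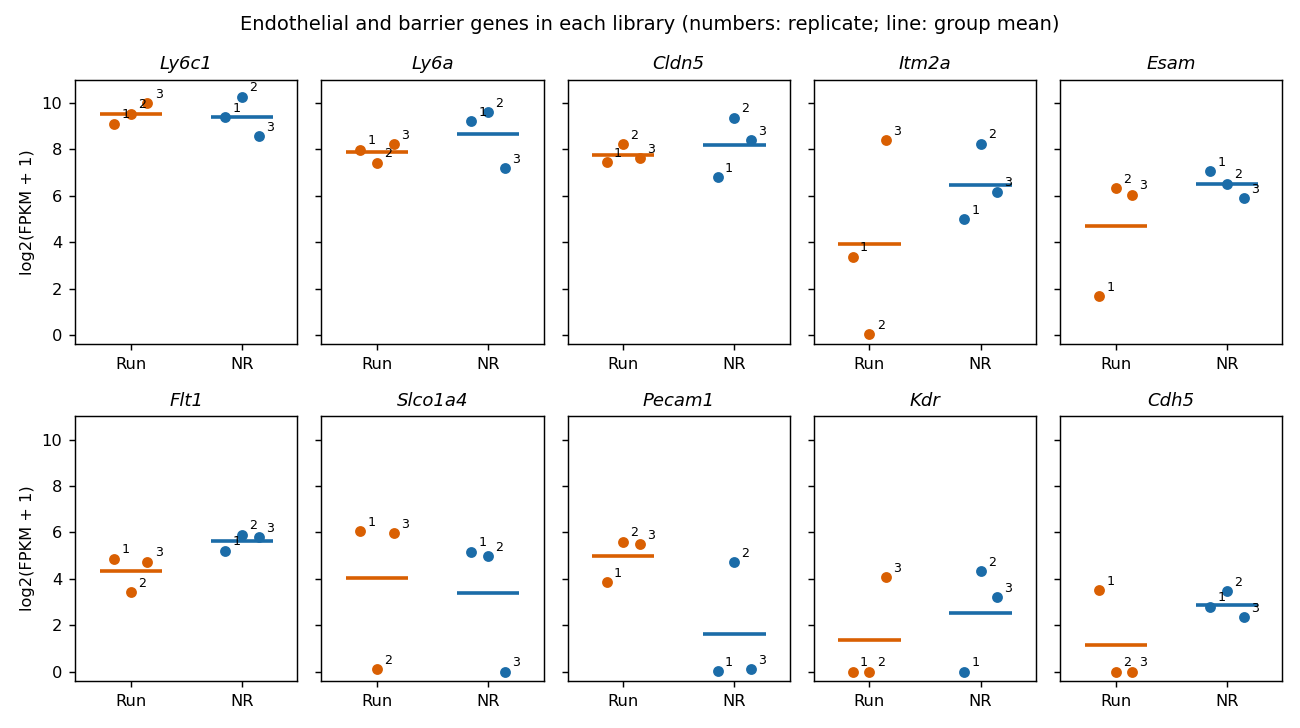
Level of each gene as log2(FPKM + 1), on the vertical axis, in the 3 Run and the 3 NR libraries. Points are libraries with their replicate number, lines are group means, and panels run from the highest to the lowest mean FPKM; Flt1 is the gene in which all Run points lie below all NR points.

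The junction genes ranged from steady to patchy. Cldn5, which encodes claudin 5, the main sealing protein of the brain's endothelial tight junctions (ENSMUSG00000041378.2, chr16:18776847-18778262), had 173, 299.6 and 197 FPKM in Run replicates 1, 2 and 3, against 111, 659.6 and 336 FPKM in NR replicates 1, 2 and 3. Both the lowest and the highest library were NR, so the Run values lay inside the NR range. Esam, an adhesion molecule of endothelial junctions, had 2.16, 79.3 and 65.2 FPKM in Run, against 132, 91.2 and 58.8 FPKM in NR. Its lowest value, in Run replicate 1, was 61.1-fold below its highest, in NR replicate 1.

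Pecam1, a homophilic adhesion molecule at endothelial cell borders, had 13.4, 47.3 and 44.4 FPKM in Run, while the NR libraries had 0.00948, 25.2 and 0.0743 FPKM. NR replicate 2 lay inside the Run range and the other 2 NR libraries were near 0. Cdh5, the adherens junction cadherin that holds endothelial cells together, showed 10.3, 0 and 0 FPKM in Run, against 5.93, 9.97 and 4.09 FPKM in NR. It was low in every library that listed it, and the highest single value was that of Run replicate 1. A value of 0 in such a table can be a failed estimate, so genes are only said to be listed at 0.

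The VEGF receptors differed in how steadily they were seen. Flt1, which encodes VEGF receptor 1, a high-affinity receptor that also exists as a secreted decoy (ENSMUSG00000029648.13, chr5:147561604-147726011), had 28.2, 9.76 and 25.7 FPKM in Run, against 36.2, 58.9 and 54.9 FPKM in NR. All 3 Run values lay below all 3 NR values. Kdr, which encodes VEGF receptor 2, the main signalling receptor, was listed at 0 in Run replicates 1 and 2 and had 15.8 FPKM in Run replicate 3, against 0, 19.2 and 8.19 FPKM in NR. The groups overlapped.

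The highest levels belonged to the Ly6 genes, which encode small surface proteins held by a lipid anchor and are abundant in mouse brain endothelium. Ly6c1 had 549, 737 and 1010 FPKM in Run (766 ± 232, SD, n = 3), against 671, 1228 and 379.5 FPKM in NR (759 ± 431, SD, n = 3). Its highest library was 3.24-fold above its lowest, the narrowest span of the 10. Ly6a, known also as the stem cell antigen Sca-1, had 252, 172 and 297 FPKM in Run (240.3 ± 63.7, SD, n = 3), against 592, 777 and 146 FPKM in NR (505 ± 324, SD, n = 3). Run replicates lay between NR replicate 3 and the other 2 NR libraries.

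The relatives of these genes followed them unevenly. Ly6c2, the near copy shown above, had 31.4, 29.7 and 50.1 FPKM in Run, against 28.6, 44.9 and 18.5 FPKM in NR. That was 5.71%, 4.03% and 4.95% of the Ly6c1 value in Run and 4.26%, 3.65% and 4.86% in NR, a narrow range over libraries whose Ly6c1 level varied 3.24-fold. How much of the Ly6c2 value comes from reads of Ly6c1 was not tested. Ly6e, which lies in the same family and shared no 50-base word with another gene, had 154, 87.5 and 141 FPKM in Run, against 334, 329 and 11.9 FPKM in NR. Its share of the Ly6a value was 61.0%, 51.0% and 47.6% in Run and 56.4%, 42.3% and 8.14% in NR, so NR replicate 3 alone lay outside 42.3% to 61.0%. Ly6a itself was 45.9%, 23.3% and 29.4% of Ly6c1 in Run, and 88.3%, 63.2% and 38.4% in NR.

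**Figure D2:**
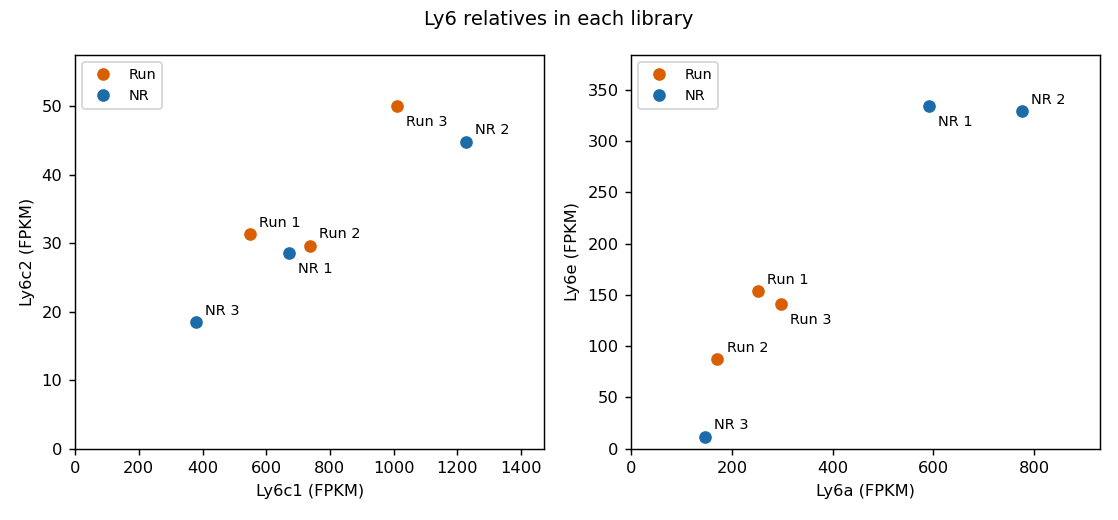
FPKM of Ly6c2 against Ly6c1 (left) and of Ly6e against Ly6a (right), 1 point per library. Ly6c2 stayed between 3.65% and 5.71% of Ly6c1 in all 6 libraries, while Ly6e ranged from 8.14% to 61.0% of Ly6a.

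The other 2 genes were the least even. Slco1a4, an organic anion transporter of the blood-brain barrier that carries steroid conjugates and drugs, had 65.3, 0.0683 and 61.2 FPKM in Run, against 34.8, 30.3 and 0 FPKM in NR. Run replicate 2 and NR replicate 3 were at or near 0. Itm2a, a membrane protein found in brain endothelium, had 9.35, 0.0241 and 336 FPKM in Run, against 30.9, 300.3 and 70.7 FPKM in NR. Its highest and its lowest library were both in the Run group. The residual SD on the log2(FPKM + 1) scale was 3.19 for Itm2a and 3.18 for Slco1a4, against 0.62 for Flt1 and 0.67 for Ly6c1, with a median of 1.69 over the 10 genes and 1.98 over the 6155 genes tested.

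Ranked by mean FPKM over the 6 libraries, the order was Ly6c1 (762.5), Ly6a (373), Cldn5 (296), Itm2a (124.5), Esam (71.5), Flt1 (35.6), Slco1a4 (31.9), Pecam1 (21.7), Kdr (7.19) and Cdh5 (5.05). Ly6c1 exceeded Ly6a in 6 of 6 libraries, and Cldn5 exceeded Itm2a in 5 of 6. Over the 9 pairs of neighbours, exact 2-sided sign-flip permutation tests on the log2(FPKM + 1) values gave p = 0.0312, the smallest that 6 libraries allow, for Ly6c1 over Ly6a and p = 0.0625 for Cldn5 over Itm2a, each with an adjusted p = 0.281 over the 9. The other 7 pairs had exact p-values of 0.281 to 1. Neighbours were picked by their means in these same libraries, which makes them the pairs closest in mean level. A single pair at the smallest possible p could reach only 0.281 after adjustment over 9. The lack of a call therefore does not show that neighbouring levels were alike.

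Whether the genes varied together over the libraries was read from Pearson's r on the log2(FPKM + 1) scale. Over the 45 pairs of the 10 genes the median r was 0.25, with a range of -0.54 to 0.86, and 35 pairs (77.8%) were positive. Over all pairs of the 6155 tested genes the median was 0.00 and 49.9% were positive. An r of at least 0.5 was seen in 17.8% of the members' pairs and in 16.2% of all pairs. Centred within each group, the members' median was 0.29, against 0.01 for all pairs.

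The positive median depended on NR replicate 2. Without that library the median over the same 45 pairs was 0.08, with 26 pairs (57.8%) positive, and without each of the other 5 in turn it lay between 0.27 and 0.40, the highest without NR replicate 3. For the 5 genes at 1 FPKM or more in all 6 libraries the median was 0.29 over 10 pairs, against 0.03 for the 1751 genes detected as steadily, and it was 0.00 without NR replicate 2. Centred within groups it was 0.11, against 0.04 for those genes. Other vascular lists had medians of 0.02 for junction genes, 0.05 for transporters, 0.18 for VEGF and angiopoietin signalling, -0.20 for the Wnt pathway, 0.04 for transcription factors and 0.13 for other endothelial genes. Microglial and oligodendrocyte marker lists, measured in the same libraries, had medians of 0.59 each over 21 and 36 pairs, astrocyte markers 0.33 over 66, neuron markers 0.15 over 66 and mural cell markers 0.11 over 6. These are descriptions of 6 libraries, with no test of the differences between lists.

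**Figure D3:**
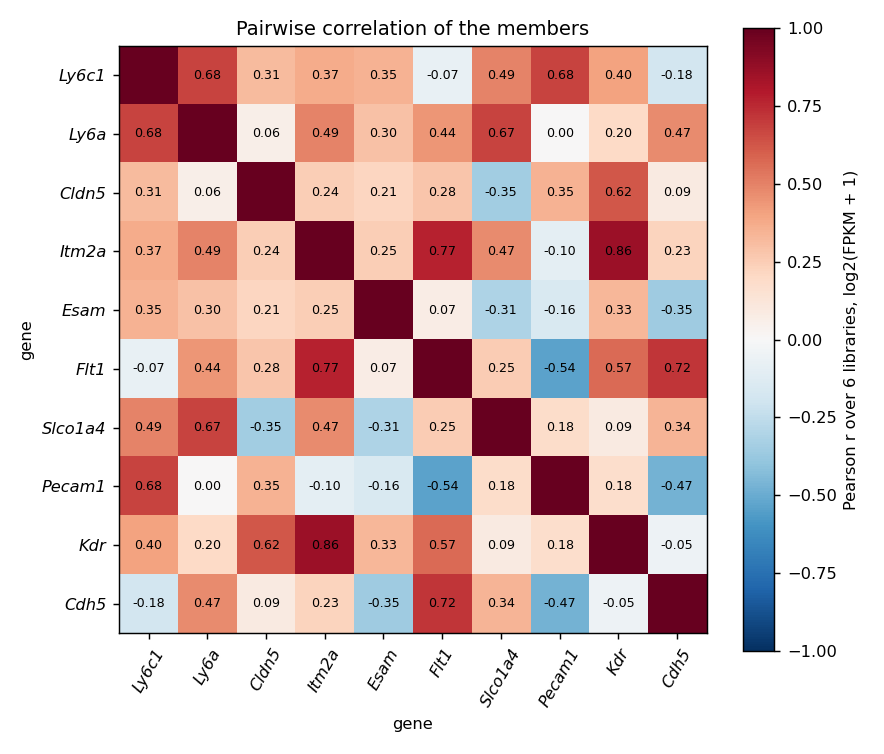
Pearson r over the 6 libraries for each pair of genes, on log2(FPKM + 1), with genes ordered by mean level on both axes. Most pairs are positive, from -0.54 for Flt1 with Pecam1 to 0.86 for Kdr with Itm2a.

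**Figure D4:**
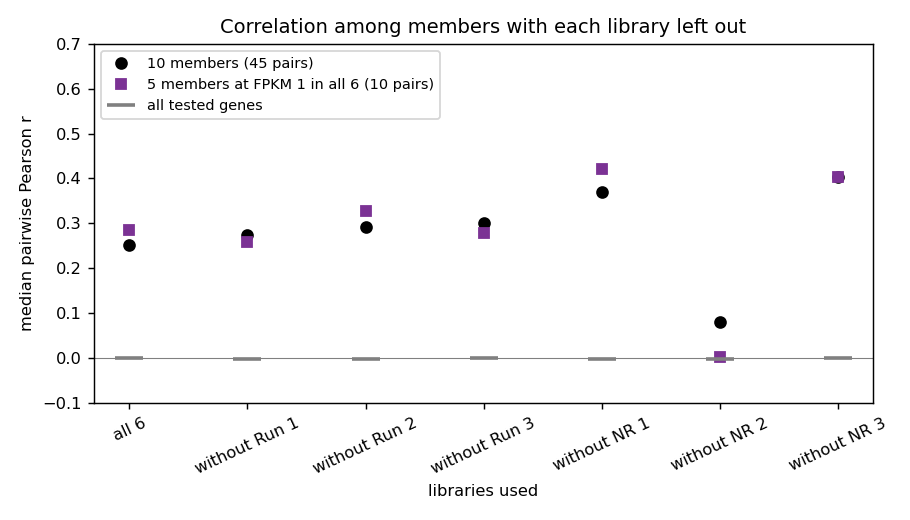
Median pairwise Pearson r (vertical axis) with all 6 libraries and with each left out (horizontal axis), for the 10 genes, for the 5 detected in every library and for all tested genes. The 2 gene sets lie at 0.08 and 0.00 without NR replicate 2, and the median of all tested genes stays near 0 throughout.

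Of the 10 pairs among the steadily detected genes, Ly6c1 with Ly6a had the highest correlation (r = 0.68, exact permutation p = 0.128; Spearman's rho = 0.71, exact permutation p = 0.136). Without the 2 libraries farthest from the median Ly6c1 level, NR replicates 2 and 3, r of this pair was -0.04. Leaving out the extreme libraries narrows the range and can by itself lower r, so it does not settle what the relation rests on. Ly6a with Flt1 followed at r = 0.44 (rho = 0.37, exact permutation p = 0.394 and 0.497), and Ly6c1 with Esam at r = 0.35 (rho = 0.54, exact permutation p = 0.442 and 0.297). Without the 2 farthest libraries these became -0.10 and 0.61. The lowest were Flt1 with Esam (r = 0.07, rho = 0.20), Cldn5 with Ly6a (r = 0.06, rho = -0.09) and Ly6c1 with Flt1 (r = -0.07, rho = -0.03), with exact permutation p-values of 0.714 to 1. Without the 2 farthest libraries they were 0.36, -0.93 and -0.16. Adjusted over the 10 pairs, every exact p was at least 0.875. Centred within groups, r was 0.83, 0.16 and 0.47 for the first 3 pairs and -0.61, -0.07 and 0.03 for the last 3, in the order given.

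By likeness to Cldn5 over the 6 libraries, with the 10 genes themselves left out of the search, the nearest of 1746 steadily detected genes were Gm15542 (r = 0.95), Hnrnpa0 (0.90), mt-Nd2 (0.89), Gpm6a (0.89) and Atp1b1 (0.89), given as a description. Gpm6a, a membrane glycoprotein gene of neurons, had 269, 685.6 and 239.8 FPKM in Run, against 227.5, 746 and 454 FPKM in NR, with NR replicate 2 again the highest and NR replicate 1 the lowest.

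Run was then set against NR gene by gene. Run was below NR on the log2 scale in 7 of the 10 genes and above it in 3, Ly6c1, Slco1a4 and Pecam1, and none passed the test. By limma, 0 of the 10 had an adjusted p under 0.05, and 0 of the 6155 tested genes did (0.0%). At an unadjusted p under 0.05 there were 304 of the 6155 genes (4.94%; 2.45% higher and 2.49% lower in Run) and none of the 10. The median log2 difference of the 10, Run minus NR, was -0.97, against -0.03 for all tested genes, of which 51.1% lay below 0. All 10 genes had passed the filter on low values.

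Flt1 had a mean of 21.2 ± 10.01 FPKM in Run and 50.02 ± 12.1 FPKM in NR (SD, n = 3 each), a ratio of 0.424. Its log2 difference was -1.30 ± 0.85 (SE; limma adjusted p = 0.978), with a 95% interval of -3.30 to 0.70. It was the only one of the 10 in which Run lay wholly below NR, against 4.19% of all tested genes, and in none did Run lie wholly above, against 4.76%. Pecam1 had the smallest unadjusted p of the 10, at 0.082 (limma adjusted p = 0.978), with a log2 difference of 3.37 ± 1.66 (SE). Ly6c1 had the narrowest interval, with a log2 difference of 0.13 ± 0.48 (SE) and a 95% interval of -0.998 to 1.26.

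For the other genes the intervals were wide on both sides of 0. Log2 differences were -0.43 ± 0.69 (SE) for Cldn5, -0.79 ± 0.67 for Ly6a, -1.82 ± 1.34 for Esam and -1.70 ± 1.22 for Cdh5. They were -1.15 ± 1.61 for Kdr, -2.53 ± 2.101 for Itm2a and 0.66 ± 2.21 for Slco1a4. The limma adjusted p was between 0.978 and 0.983 for all 10. Single libraries moved several of these by over 1.5 times. Esam was at -0.31 without Run replicate 1, Itm2a at -0.58 without Run replicate 2 and -4.76 without Run replicate 3, and Ly6a at -0.33 without NR replicate 2 and -1.53 without NR replicate 3. Cdh5 was at -2.87 without Run replicate 1 and -1.11 without either of the other 2 Run libraries, and Kdr at -0.48 without Run replicate 1 or 2 and -2.41 without NR replicate 1. With a pseudocount of 0.1 Cdh5 was at -3.75, Kdr at -2.22 and Pecam1 at 5.28. Without NR replicate 2 the median of the 9 genes still tested was -0.33, with 5 of 9 below 0, and Cldn5 had a log2 difference of 0.16. Without Run replicate 1 the median was -0.41, and without Run replicate 2 it was -0.58.

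**Figure D5:**
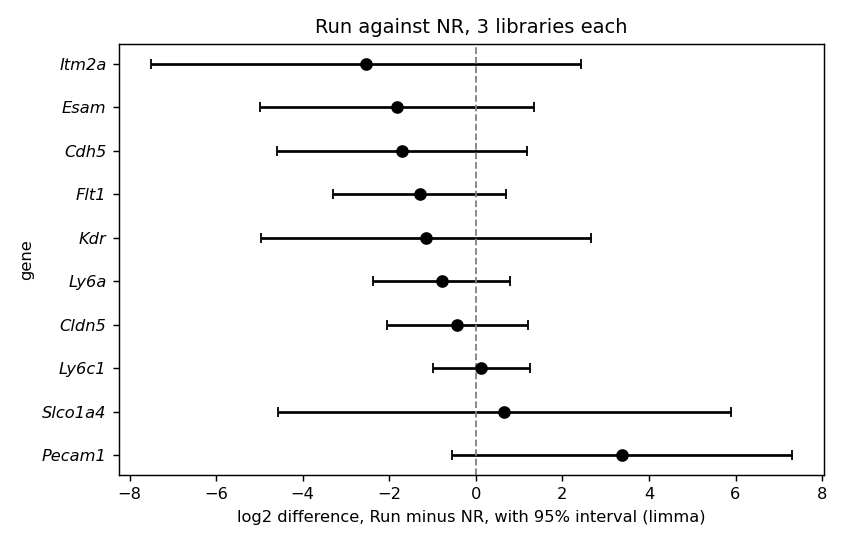
Log2 difference, Run minus NR, of each gene (points) with its 95% interval from limma (bars), 3 libraries per group. All 10 intervals include 0, and 7 of 10 points lie below it.

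Other genes of vessels and the barrier were taken from lists of related function. Of 20 genes of VEGF, angiopoietin and Notch signalling, 9 were tested, none passed, and 7 had lower and 2 higher values in Run, with a median log2 difference of -1.30. Nrp1, which encodes neuropilin 1, a co-receptor for VEGF and semaphorins that is also made by neurons, had 0, 0.155 and 0.545 FPKM in Run, against 29.2, 13.2 and 28.2 FPKM in NR. The groups did not overlap, and its log2 difference was -4.26 ± 1.04 (SE), with an unadjusted p = 0.00467 and a limma adjusted p = 0.290. Only its 3 NR libraries reached 1 FPKM, so passing the filter on low values fixed the lack of overlap in advance. The p-value is shaped by the same selection, and neither is support for a difference. Plxnd1, a semaphorin receptor gene, had 17.5, 0 and 11.03 FPKM in Run, against 0, 1.75 and 0 FPKM in NR.

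The receptor genes with the highest means in that list were uneven. Acvrl1, a BMP receptor of endothelium, had 0, 10.97 and 31.6 FPKM in Run, against 87.5, 36.5 and 0.0335 FPKM in NR. Eng, which encodes the co-receptor endoglin, had 0.580, 11.5 and 9.84 FPKM in Run, against 14.0, 106 and 7.49 FPKM in NR. Tek, which encodes the angiopoietin receptor Tie2, had 0, 1.62 and 7.90 FPKM in Run, against 76.6, 10.7 and 0.00891 FPKM in NR. In all 3 genes the highest library was an NR library and the groups overlapped.

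Of 21 endothelial transcription factors, 11 were tested, none passed, and 8 were lower and 3 higher in Run, with a median log2 difference of -1.40. Sox18, a factor of vessel and lymphatic development, was listed at 0 in all 3 Run libraries, against 1.97, 140.1 and 79.3 FPKM in NR (unadjusted p = 0.02, limma adjusted p = 0.695). Its groups did not overlap, which the filter fixed in advance here too, as only the NR libraries reached 1 FPKM. Epas1, the hypoxia-inducible factor of endothelium and astrocytes, was steadier, at 87.9, 51.4 and 79.9 FPKM in Run against 55.4, 48.8 and 65.9 FPKM in NR. Klf2, a flow-responsive factor, had 164, 16.1 and 79.6 FPKM in Run, against 83.6, 53.9 and 152 FPKM in NR.

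Among 15 further junction genes, 9 were tested, 6 higher and 3 lower in Run, with a median log2 difference of 0.53 and none past the threshold. F11r, which encodes the tight junction protein JAM-A, had 49.8, 23.4 and 33.9 FPKM in Run, against 0.0329, 28.6 and 0.0590 FPKM in NR, high in the same 4 libraries as Pecam1. Jup, which encodes plakoglobin, had 0, 0 and 29.9 FPKM in Run, against 50.4, 26.6 and 23.2 FPKM in NR. Of the catenin genes, Ctnna1 had 97.1, 35.4 and 30.5 FPKM in Run, against 0, 18.3 and 27.7 FPKM in NR, with no overlap (limma adjusted p = 0.978), and Ctnnb1, also of the Wnt pathway, had 54.8, 17.8 and 60.8 FPKM in Run, against 15.3, 42.2 and 18.7 FPKM in NR. The adhesion gene Jam3 had 0, 0 and 46.5 FPKM in Run, against 41.2, 0 and 49.4 FPKM in NR.

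Of 19 barrier transporters 10 were tested, 7 higher and 3 lower in Run, with a median log2 difference of 0.18 and none past the threshold. Slc2a1, which encodes the glucose transporter GLUT1, had 198, 21.2 and 235 FPKM in Run, against 61.3, 72.0 and 23.0 FPKM in NR. Abcb1a, which encodes the drug efflux pump P-glycoprotein, had 24.6, 10.2 and 17.9 FPKM in Run, against 0.00872, 10.02 and 3.48 FPKM in NR, with no overlap but with Run replicate 2 only just above NR replicate 2 (unadjusted p = 0.145, limma adjusted p = 0.978). Slco1c1, a thyroid hormone transporter gene, had 75.0, 0 and 25.9 FPKM in Run, against 35.3, 41.4 and 0.0128 FPKM in NR, near 0 in the same 2 libraries as Slco1a4. The amino acid transporter genes Slc3a2 and Slc38a3 had log2 differences of 0.01 and -2.42, and for both the groups overlapped.

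Of 16 genes of the Wnt pathway that maintains the barrier, 5 were tested, 3 higher and 2 lower in Run, with a median log2 difference of 0.43. Tspan12, a co-activator of Norrin signalling, had 2.25, 43.8 and 79.6 FPKM in Run, against 69.1, 0.0197 and 66.3 FPKM in NR. Ndp, which encodes Norrin itself, had 42.3, 0 and 0 FPKM in Run, against 56.4, 27.8 and 0 FPKM in NR. The receptor gene Lrp6 had 1.90, 0 and 0 FPKM in Run, against 0, 3.97 and 8.08 FPKM in NR, and the co-receptor gene Reck had 0.0161, 10.3 and 36.1 FPKM in Run, against 0.00886, 10.6 and 0 FPKM in NR. All 5 tested genes had overlapping groups.

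Of 40 other endothelial surface and secreted genes, 25 were tested, 17 lower and 8 higher in Run, with a median log2 difference of -0.48 and none past the threshold. Bsg, which encodes basigin, a partner of lactate transporters, had 1097, 826 and 979 FPKM in Run, against 1846, 1844 and 1078 FPKM in NR, a log2 difference of -0.68 ± 0.28 (SE; unadjusted p = 0.0475, limma adjusted p = 0.978). Run replicate 1 lay just above NR replicate 3, and Bsg is made by many cell types. Nos3, the endothelial nitric oxide synthase, had 0, 0 and 10.7 FPKM in Run, against 25.6, 12.7 and 27.0 FPKM in NR, with no overlap (unadjusted p = 0.0584, limma adjusted p = 0.978). The matrix-associated gene Sparcl1 and the interferon-induced Ifitm3, which are also not specific to vessels, had log2 differences of -0.12 and -0.04. Of the 16 further Ly6 family genes 4 were tested, 2 higher and 2 lower in Run, and 9 were listed at 0 in every library. Besides Ly6e and Ly6c2, the tested ones were Ly6h, a gene of neurons, and Lypd1, with log2 differences of -1.73 and -1.43 and overlapping groups.

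The labelled cell type was set against marker lists. Of 14 neuron markers, 4 were at 1 FPKM or more in all 6 libraries. The synaptic gene Snap25 had 370.2, 390.5 and 169 FPKM in Run, against 172, 249 and 454 FPKM in NR. Tubb3, a neuronal tubulin gene, had 69.7 to 253 FPKM in Run and 44.1 to 188 FPKM in NR, and Camk2a, a kinase gene of excitatory neurons, had 37.3 to 106 FPKM in Run and 48.9 to 66.1 FPKM in NR. Rbfox3, the gene of the neuron marker NeuN, was less even, at 5.62 to 119.5 FPKM in Run and listed at 0 in NR replicates 1 and 3, with 49.7 FPKM in NR replicate 2. Prox1, a marker of dentate granule neurons, had 3.65, 39.9 and 15.1 FPKM in Run, against 0.285, 17.8 and 0.417 FPKM in NR. The mean log2(FPKM + 1) of the neuron markers was 3.68 to 5.597 in the Run libraries and 2.50 to 4.28 in the NR libraries, and that of the 10 endothelial genes 4.07 to 6.05 in Run and 4.77 to 6.74 in NR. Such means depend on the genes listed. Endothelial transcription factors stood at 1.09 to 1.94 in Run and 1.99 to 2.51 in NR. The other endothelial surface and secreted genes stood at 3.02 to 3.65 in Run and 2.98 to 4.53 in NR, and 5 of these 40 were listed at 0 in every library. Astrocyte markers, 9 of 12 of them at 1 FPKM or more in all libraries, stood at 5.92 to 7.16 in Run and 6.46 to 7.06 in NR. Mural cell markers, of cells that wrap the same vessels, had a summed level of 317 to 803 FPKM in Run and 533 to 1759 FPKM in NR, highest in NR replicate 1 and at 636 FPKM in NR replicate 2. Of the 12 mural markers, 3 were at 1 FPKM or more in all 6 libraries: Acta2, with 150 to 457 FPKM in Run and 274 to 1015 FPKM in NR, Tagln, with 7.72 to 192 FPKM in Run and 100.2 to 342 FPKM in NR, and Rgs5, with 78.9 to 152 FPKM in Run and 36.6 to 90.7 FPKM in NR. Kcnj8, Abcc9 and Anpep were listed at 0 in all 6. Microglial markers summed to 179 to 1248 FPKM in Run and 55.0 to 611.5 FPKM in NR, and oligodendrocyte markers to 183 to 901.5 FPKM in Run and 257 to 1506 FPKM in NR. Of the 10 blood markers, 7 were listed at 0 in all libraries, haemoglobin genes among them, as were 5 of the 10 choroid plexus and fibroblast markers. The blood markers summed to 71.1 to 387 FPKM in Run and 23.6 to 290 FPKM in NR, nearly all of it from Lyz2 and Cd52. Of these, Lyz2 was at 1 FPKM or more in all 6 libraries, with 71.1 to 302 FPKM in Run and 23.6 to 189 FPKM in NR. The choroid plexus marker Ttr had 0.0772, 23.15 and 35.8 FPKM in Run, against 0, 96.3 and 39.97 FPKM in NR. Which cells gave the endothelial values was not tested.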

How the data were processed

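FPKM was the deposited unit, in 1 table with a column per library and 55367 symbols. Build mm10 and, among others, StringTie 2.1.7, STAR 2.7.5c and Trimmomatic 0.39 are named per the submitters' processing notes, without their roles. Neither they nor the labels name the annotation, and read depth is unknown. The summed FPKM was 473786 to 492021 per library. Coordinates came from GENCODE M21 of the same build (53289 symbols, 96.2%, matched).

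The 6155 genes that reached 1 FPKM in 3 or more libraries were tested on log2(FPKM + 1), which understates changes of low genes, with limma 3.58.1 (R 4.3.3, mean-variance trend, 2-sided, Benjamini-Hochberg over all tested genes, threshold 0.05). On simulated data with the real spread between these libraries the test recovered 0% of 200 genes given a log2 change of 2. The absence of calls therefore says little about differences of that size. With the median SD of abundant genes given to every gene it recovered 70%, with 8 false calls. Correlations used Python 3.11.15 and scipy 1.17.1. All libraries are in 1 batch. Members, lists and rules were chosen with earlier results of these data known. The text names the members and, of each vascular list, the 3 genes of highest mean and the 2 of smallest p. It also names the 5 genes most like Cldn5 and the 3 highest and 3 lowest member correlations. Other cells' marker lists are summed, apart from neuron, mural, blood and choroid plexus genes named by the same rule. Not every gene under this rule is reported here. The Ly6e and Ly6c2 ratios were chosen after their values were seen. Alternatives varied the pseudocount (0.1), filter, scaling, trend, replicate block and libraries.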

Additional observations from a re-analysis of the deposited data

How the results depend on the processing

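No gene passed an adjusted p under 0.05 by limma under any alternative run, among the 10 members or all genes. Unadjusted p-values under 0.05 numbered 304, 82 where FPKM of at least 1 was required in all 6 libraries, which left 1751 genes, and 252 to 334 without each library. The members' median log2 difference was -0.97, and -1.31 (without NR replicate 1) to -0.33 (without NR replicate 2) without each library. Their median pairwise r was 0.25, and 0.08 (without NR replicate 2) to 0.37 without each library, with the filter applied again, which removed Kdr in 3 of these. With the replicate number as a replicate block, unadjusted calls numbered 251, and the median r on values centred within each number was 0.50. Values centred in this way hold only the 3 differences between same-numbered libraries. The 0.50 therefore cannot be set against 0.25, and no such value was computed for all genes. Same-numbered libraries of the groups deviated together with correlations of only 0.02, 0.00 and 0.02, so the numbers are not taken to pair them, although each library correlated best with its own number. Of 122 single-gene values, 6 changed sign: Cldn5 at 0.16 without NR replicate 2 (range without each library -1.12 to 0.16); Ly6c1 at -0.09 without Run replicate 3 and -0.29 without NR replicate 3 (-0.29 to 0.56); and Slco1a4 at -0.35, -0.30 and -1.03 without Run replicate 1, Run replicate 3 and NR replicate 3 (-1.03 to 2.63). The causes were not tested. Flt1 stayed below 0 in all alternatives, from -1.56 to -0.84, with adjusted p of 0.712 to 0.999. At an unadjusted limma p under 0.05 there was 1 member, a different one each time, in 4 of the runs without a library. It was Cdh5 without Run replicate 1, Itm2a without Run replicate 3, Pecam1 without NR replicate 2 and Ly6a without NR replicate 3. The smallest limma adjusted p among them was 0.407, for Pecam1. In those runs only the 3 NR libraries reached 1 FPKM for Cdh5, and only the 3 Run libraries for Pecam1. Passing the filter therefore fixed the lack of overlap in advance for both genes, and neither p-value is support for a difference. Over all tested genes the same runs had 318 of 5221, 285 of 5369, 317 of 4938 and 252 of 5219 genes under that threshold, in that order.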
